A study of Homo sapiens with 48 samples.

Results

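Toll-like receptors recognise microbial products and pass the signal on through adaptors that share a TIR domain. MYD88, bridged to some receptors by TIRAP, recruits the kinases IRAK4, IRAK1 and IRAK2, whereas TICAM1 (TRIF), which binds TLR3 directly and TLR4 through TICAM2 (TRAM), leads to the kinase TBK1 as well as to NF-κB. Both branches end in the NF-κB factors, of which RELA serves the canonical and RELB the noncanonical pathway, so genes of the pathway are at the same time routes to NF-κB and possible targets of it. The binding of RELA, RELB and the AP-1 factor FOSL1, and acetylation of histone H3 at lysine 27 (H3K27ac), a mark of active promoters and enhancers, were examined at 10 of these genes, namely the receptors TLR2, TLR3 and TLR4, the adaptors MYD88, TIRAP, TICAM1 and TICAM2, and the kinases IRAK1, IRAK2 and IRAK4. They are 10 of 20007 protein-coding genes of the annotation (GENCODE 44, hg38), and a region was assigned to a gene if it overlapped the gene body or the 50 kb on either side by at least 1 bp. The genes were chosen by a measured value, the strong RELA and RELB region at the TICAM1 start, so RELA and RELB values are given as a description without a test.

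The data were ChIP-seq peak lists from an established cell line of human pancreatic cancer, L3.6pl, treated with vehicle (PBS, for a time that the labels do not give), with TNFα for 30 min or 6 h, or with TWEAK for 30 min or 6 h. RELA, RELB and H3K27ac were profiled in these 5 conditions and FOSL1 in vehicle alone, with 3 replicates in each of 16 groups, or 48 samples. The deposited files hold 1 list per group, so there is no spread between replicates, no difference between conditions can be tested, and the sequencing depth behind a list is unknown. For RELA at 30 min of TNFα, the peak names carry the first replicate beside the word merged, which leaves unclear whether that list draws on 3 replicates or fewer. All lists come from 1 cell line in culture, which limits them as a model of a tumour.

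The lists differ in size. For RELA there were 3004 regions in vehicle, 11266 and 7294 after TNFα (30 min and 6 h) and 2791 and 3677 after TWEAK. The RELB lists held between 2414 and 4101 regions, the FOSL1 list 58864, and the H3K27ac lists between 53895 and 61194. A fold enrichment of ChIP over input is therefore given with its percentile among all regions of its own list. As a check on the cell type, H3K27ac lay within 1 kb of a start in vehicle for 6 of 6 epithelial markers (fold 1.84 to 4.23) and for the leukocyte markers CD68, CSF1R and CD3E (fold 1.81 to 3.47), while PTPRC, CD14 and SPI1 had none. By the same rule 66.8% of all protein-coding genes had the mark, and the folds of the 2 marker sets overlapped, so the check separates the cell types poorly.

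Over the 10 RELA and RELB lists, 21 of 44976 regions fell in the windows of the members. They made up 8 separate sites, 4 at IRAK2, 2 at TICAM1, and 1 each at TICAM2 and TIRAP. The sites were read for the NF-κB consensus, a decamer that has several spellings, and for the AP-1 heptamer TGACTCA or TGAGTCA, both on either strand, in the 200 bp around the RELA summit at 30 min of TNFα. The sequences of 5 sites are printed because they carry the findings below. The first is the TICAM1 start, the next is the site at the TICAM2 start, and the others are the sites at IRAK2 and TIRAP that were in more than 1 list. Each shows 150 bases around the summit in hg38, 5′ to 3′ on the strand of the gene, with motif matches in capitals.
TICAM1 start (chr19:4831755-4831904, minus strand): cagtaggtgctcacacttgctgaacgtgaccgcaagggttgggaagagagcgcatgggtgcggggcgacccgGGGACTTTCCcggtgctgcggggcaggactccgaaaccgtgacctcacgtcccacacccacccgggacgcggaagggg
TICAM2 intron 1 (chr5:115601815-115601964, minus strand): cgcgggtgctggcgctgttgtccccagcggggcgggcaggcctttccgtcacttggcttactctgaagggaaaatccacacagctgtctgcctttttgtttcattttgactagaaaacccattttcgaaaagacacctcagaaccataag
IRAK2 intron 2, 27379 bp from the start (chr3:10192223-10192372, plus strand): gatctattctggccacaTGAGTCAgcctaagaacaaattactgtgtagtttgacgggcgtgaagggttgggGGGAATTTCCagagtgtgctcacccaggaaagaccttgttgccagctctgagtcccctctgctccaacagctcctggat
IRAK2 intron 2, 34378 bp from the start (chr3:10199222-10199371, plus strand): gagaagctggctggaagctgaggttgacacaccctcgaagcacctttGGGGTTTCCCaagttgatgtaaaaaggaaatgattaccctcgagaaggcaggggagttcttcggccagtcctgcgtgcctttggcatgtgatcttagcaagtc
TIRAP, 57072 bp from the start (chr11:126339494-126339643, plus strand): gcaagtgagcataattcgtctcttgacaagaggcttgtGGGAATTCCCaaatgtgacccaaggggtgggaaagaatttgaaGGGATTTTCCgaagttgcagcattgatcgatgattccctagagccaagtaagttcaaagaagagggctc
The capitals mark 1 NF-κB decamer at the TICAM1 start, none at TICAM2, an AP-1 heptamer and an NF-κB decamer at the first IRAK2 site, 1 decamer at the second, and 2 decamers at TIRAP.

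An NF-κB match was present at 7 of the 8 sites, the site at TICAM2 being the exception, and an AP-1 match at 1 of 8. Among all RELA regions of 30 min of TNFα, 34.8% held the NF-κB consensus and 11.1% the AP-1 heptamer in a window of the same length, against 4.21% and 3.54% of 35116 RefSeq promoter windows of that length (GRCh38.p14). The match nearest to the summit had its centre 0 to 37 bp from it at the 7 sites. Of the 3915 RELA regions with a match, 85.0% had it within 37 bp, a distance taken from the members, so the members' matches lie where those of most regions lie. Both TICAM1 sites carried the same decamer, GGGACTTTCC, which was found in 320 (2.84%) of the RELA regions at that time. The decamers of the 2 IRAK2 sites that were in several lists were GGGAATTTCC, found in 504 regions, and GGGGTTTCCC, which reads as a match on either strand and was found in 242.

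**Figure D1:**
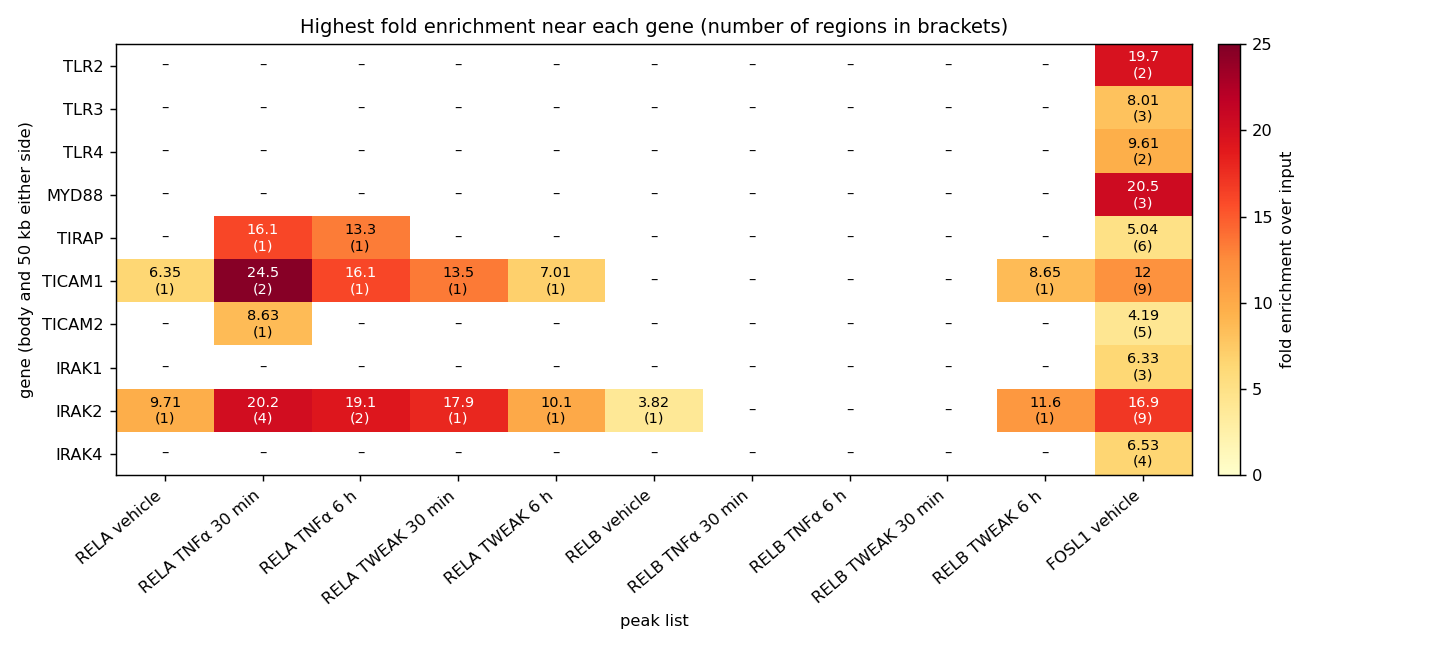
Highest fold enrichment over input (colour and upper number) and number of regions (in brackets) in the window of each gene (rows) for the RELA, RELB and FOSL1 peak lists (columns, 1 list per condition), with a dash where the list has no region. RELA or RELB regions are limited to TICAM1, TICAM2, TIRAP and IRAK2, with the highest RELA fold of 24.5 at TICAM1, while FOSL1 has regions at all 10 genes.

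None of the 3 receptors had a RELA or RELB region. TLR2, which senses bacterial lipopeptides, TLR3, the receptor for double-stranded RNA, and TLR4, the receptor for lipopolysaccharide, were without a region in their windows of 119 to 122 kb in each of the 10 lists. The same held for the adaptor MYD88 and for the kinases IRAK1 and IRAK4. Thus 4 members had a RELA region at 30 min of TNFα (TICAM1, TICAM2, TIRAP and IRAK2), and the other 6 had none in any list.

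These counts stand against the share of all protein-coding genes with a region under the same rule. At 30 min of TNFα, when 48.1% of all genes had a RELA region, 4 of 10 members had one, and 4 had one that overlapped no region of the vehicle list, against 46.9% of all genes. TICAM1 is counted among these through a site 58370 bp from its start alone, since its start region is in the vehicle list, and the count is 2 with 10 kb on either side or with sites whose nearest start is the member's. At 6 h of TNFα, TICAM1, TIRAP and IRAK2 were called, 3 of 10 against 26.8%. The members are therefore close to the background in the TNFα lists. In vehicle and at 30 min and 6 h of TWEAK, TICAM1 and IRAK2 were called, 2 of 10 in each list against 5.05%, 7.58% and 5.11% of all genes. In the RELB lists, TICAM1 and IRAK2 were called at 6 h of TWEAK, 2 of 10 against 13.6%, IRAK2 alone in vehicle against 3.06%, and no member in either TNFα list or at 30 min of TWEAK, against 1.58%, 3.87% and 1.39%. With 10 genes, 2 calls are a description of TICAM1 and IRAK2 and not of the pathway. The windows of the members had a median of 120 kb against 127 kb for all genes.

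**Figure D2:**
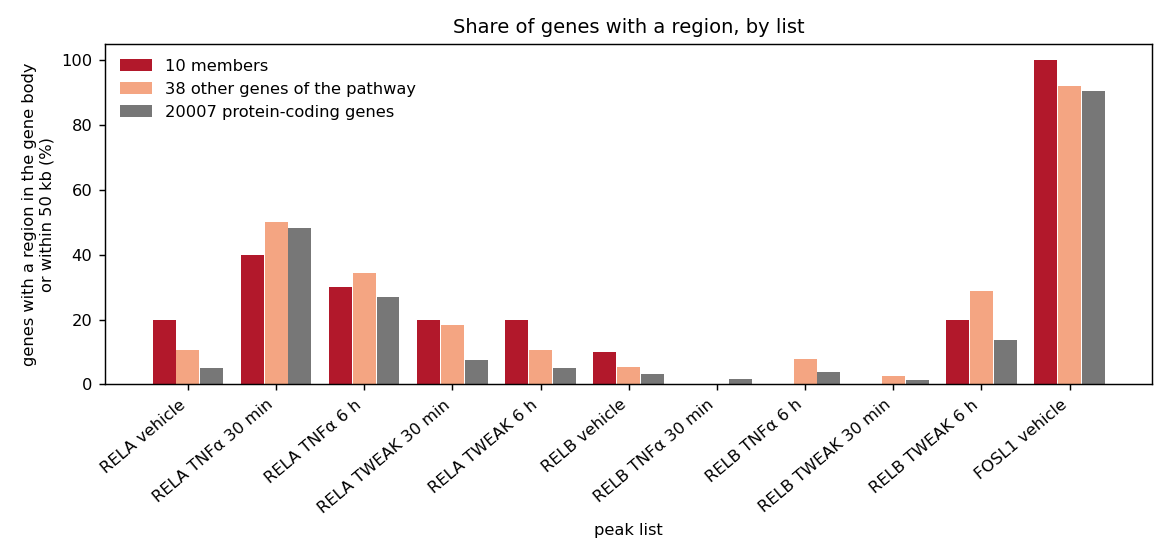
Percentage of genes (vertical axis) with at least 1 region in the gene body or within 50 kb, for each RELA, RELB and FOSL1 list (horizontal axis), for the 10 members, 38 other genes of the pathway and all 20007 protein-coding genes. In the RELA list of 30 min of TNFα the 4 of 10 members lie below the 48.1% of all genes, and in vehicle the 2 of 10 members lie above 5.05%.

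TICAM1, the adaptor of TLR3 and TLR4, had a RELA region at its start in all 5 RELA lists. The fold enrichment was 6.35 in vehicle, 24.5 and 16.1 after TNFα (30 min and 6 h), and 13.5 and 7.01 after TWEAK (30 min and 6 h). These values stand at the 62.0, 99.9, 97.7, 95.6 and 73.6 percentile of their lists. The region was thus an ordinary one in vehicle and ranked 16 of 11266 at 30 min of TNFα, and for both cytokines the 30 min value was above the 6 h value, with the 6 h TWEAK value near that of vehicle. The −log10 q of the same regions was 7.61, 144, 51.8, 31.2 and 9.92, which gives the same order.

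RELB was found at the TICAM1 start at 6 h of TWEAK, with a fold of 8.65 at the 79.2 percentile and a −log10 q of 14.2, and in none of the other 4 RELB lists. The order in time was thus opposite for the 2 factors under TWEAK, RELA having its higher value at 30 min and RELB being listed at 6 h alone. RELA and RELB were precipitated with different antibodies, so their folds are not compared with each other. The RELA summits lay 109 to 119 bp upstream of the start and the RELB summit 122 bp upstream, all 3 to 7 bp from the centre of the NF-κB decamer (chr19:4831823-4831832), which lies 115 bp upstream. The region was 143 bp long in vehicle and 465 bp at 30 min of TNFα, when it extended 127 bp into the gene. The next protein-coding start, that of PLIN3, is 27806 bp away.

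**Figure D3:**
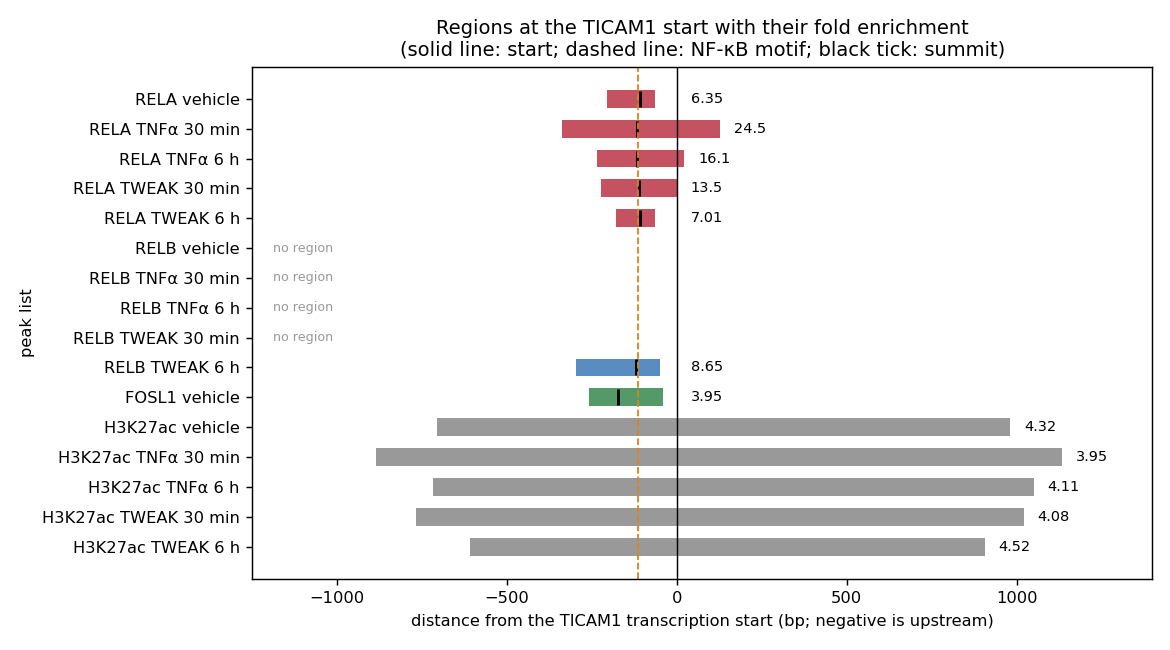
Regions of the 16 peak lists (rows) within 1 kb of the TICAM1 transcription start, drawn to scale by distance from the start in bp, with the summit as a black tick, the NF-κB motif as a dashed line and the fold enrichment beside each bar. The RELA and RELB summits stack at the motif 115 bp upstream, the FOSL1 summit lies 174 bp upstream, and the H3K27ac regions span both sides of the start.

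TICAM1 was chosen for its start, so the rarity of such a start describes the choice. A RELA region lay within 1 kb of a start in 11.5% of all genes at 30 min of TNFα (2 of 10 members, TICAM1 and TICAM2), and a RELB region in 1.84% at 6 h of TWEAK (1 of 10, TICAM1). A start region in each of the 6 lists that TICAM1 has was found for 55 genes (0.275%), and in those 6 lists and no other for 21 (0.105%). By the mean absolute difference in percentile over the 10 RELA and RELB lists, the genes most like TICAM1 were PNRC1 (3.28 points), ACAP1 and KCTD11 (3.35 each, from 1 region that both starts share), HMGXB4 (4.06) and PLXNB2 (4.38). All 5 had a region in the same 6 lists, and their percentile at 30 min of TNFα was 97.8 to 99.2.

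The FOSL1 region at the TICAM1 start was weak, with a fold of 3.95 at the 23.1 percentile of its list, and its summit lay 56 bp farther upstream than that of RELA. No AP-1 heptamer was in the window around the RELA summit. H3K27ac covered the start in all 5 lists, with a fold of 4.32 in vehicle, 3.95 and 4.11 after TNFα (30 min and 6 h), and 4.08 and 4.52 after TWEAK (30 min and 6 h). These stand at the 80.6 to 86.8 percentile of their lists, so the fold of the mark was similar in every list while the RELA fold ranged from 6.35 to 24.5. The H3K27ac region was longest at 30 min of TNFα, with 2021 bp against 1690 bp in vehicle. Its −log10 q was also highest there, 48.8 against 28.2 in vehicle. Whether the mark changed was not tested. The other TICAM1 site lay 58370 bp downstream of the start, nearer to FEM1A, inside the noncoding gene MIR7-3HG. It was found for RELA at 30 min of TNFα alone, with a fold of 4.98 at the 28.6 percentile, without FOSL1 and without H3K27ac within 500 bp.

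TICAM2, which links TLR4 to TICAM1, had 1 site, found for RELA at 30 min of TNFα alone. Its fold was 8.63, at the 78.0 percentile, and it lay in intron 1, 299 bp from the nearer of the 2 annotated TICAM2 starts. The same intron belongs to the read-through gene TMED7-TICAM2, so the site cannot be assigned to 1 of the 2 by position. It was the only one of the 8 sites without the NF-κB consensus. H3K27ac covered the start in all 5 lists with folds of 3.88 to 5.07, and no FOSL1 region lay within 1 kb.

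TIRAP, the bridge between TLR2 or TLR4 and MYD88, had 1 site in the RELA lists of TNFα, with a fold of 16.1 at 30 min and 13.3 at 6 h (96.7 and 94.6 percentile). It was absent from the vehicle, TWEAK and RELB lists. The site lies 57072 bp from the TIRAP start, inside DCPS and 3155 bp from a DCPS start, so TIRAP is not the nearest gene. Its 2 decamers lie 33 bp before and 10 bp after the summit.

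IRAK2, a kinase of the MYD88 branch, had 4 sites in the widest window of the members (179 kb, against 104 to 139 kb for the others). The site 27379 bp from the start, in intron 2, was in all 5 RELA lists with folds of 9.71 in vehicle, 20.2 and 19.1 after TNFα, and 17.9 and 10.1 after TWEAK, each at 30 min and 6 h (89.7, 99.1, 99.1, 98.5 and 90.9 percentile). It was therefore among the stronger regions of every RELA list, vehicle included. For RELB it was listed in vehicle with a fold of 3.82 at the 15.2 percentile and at 6 h of TWEAK with 11.6 at the 91.6 percentile.

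TICAM1 and IRAK2 thus shared the order of the 5 RELA lists by fold. It fell from 30 min to 6 h of TNFα, then to 30 min and 6 h of TWEAK, and was lowest in vehicle. At 6 h of TNFα the IRAK2 fold was close to that at 30 min, whereas the TICAM1 fold was lower. With 1 list per group this difference cannot be tested. The IRAK2 decamer is centred on the RELA summit of 30 min of TNFα (chr3:10192294-10192303), and the AP-1 heptamer lies 55 bp before it (chr3:10192240-10192246). The FOSL1 region that overlaps this site had a fold of 8.96 at the 85.3 percentile, and its summit lay 88 bp from that of RELA, on the side of the AP-1 heptamer. H3K27ac was found within 500 bp in all 5 lists with folds of 1.98 to 2.66, lower than at the TICAM1 start.

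**Figure D4:**
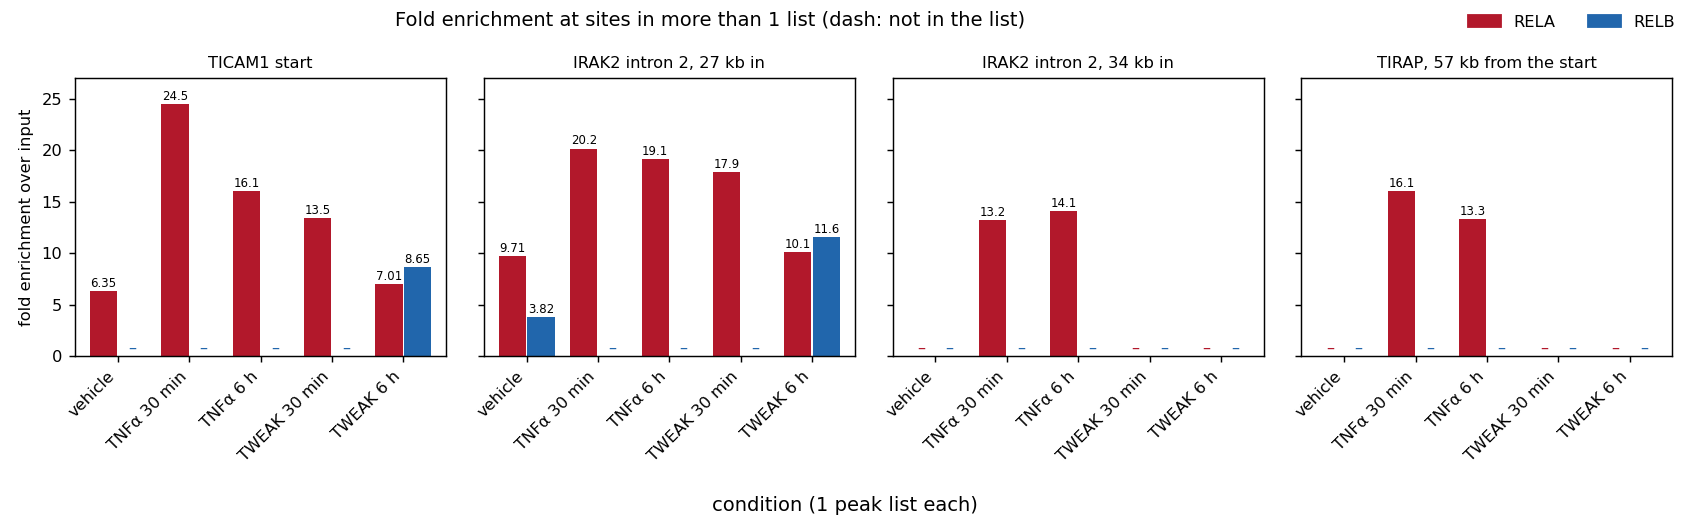
Fold enrichment over input (vertical axis) of RELA (red) and RELB (blue) by condition at the 4 sites found in more than 1 list, with a dash where the list has no region (1 list per condition, no error bars). The TICAM1 start and the IRAK2 site 27379 bp from the start have RELA in all 5 conditions and RELB at 6 h of TWEAK, whereas the IRAK2 site at 34378 bp and the TIRAP site have RELA after TNFα alone.

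The other IRAK2 sites were found after TNFα alone. In intron 2, 34378 bp from the start, RELA had a fold of 13.2 at 30 min and 14.1 at 6 h (93.1 and 95.8 percentile). In intron 1, 4408 bp from the start, it had a fold of 5.57 at 30 min (42.8 percentile), with a decamer 2 bp from the summit and with neither FOSL1 nor H3K27ac. The last site, with a fold of 9.52 at 30 min (82.5 percentile), lay 23043 bp upstream of IRAK2 and 28 bp from the start of VHL, which is the nearer gene. None of these sites overlapped a FOSL1 region.

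FOSL1 was examined in vehicle and had 46 regions in the windows, at all 10 members, as at 90.6% of all genes. Of these, 2 overlapped a RELA or RELB region, the TICAM1 start and the IRAK2 site in intron 2. A RELA region of 30 min of TNFα on a FOSL1 region was thus present at 2 of 10 members, against 30.1% of all genes. Within 1 kb of a start, FOSL1 was found at TLR4, TICAM1, TIRAP, IRAK1 and IRAK4, 5 of 10 against 50.8%. The strongest region often lay away from the member's own start. At MYD88 (fold 20.5, 99.7 percentile) it lay 47352 bp from the start and nearer to OXSR1, at TLR2 (fold 19.7, 99.6 percentile) it lay 111 bp from an RNF175 start, and at IRAK2 (fold 16.9, 98.7 percentile) in intron 3. TLR4 had its strongest FOSL1 region at the start itself, 16 bp upstream, with a fold of 9.61 (87.5 percentile). The summit was 2 bp from the start of a coding gene without a symbol, so the region cannot be assigned to TLR4 alone. IRAK1 likewise had its strongest region at the start, with 6.33 (69.5 percentile).

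H3K27ac, which was not used to choose the genes, lay within 1 kb of a start of 9 of 10 members in every list, TLR2 being the exception. The share of all genes was 66.8% in vehicle, 64.9% and 66.6% after TNFα (30 min and 6 h), and 65.5% and 66.3% after TWEAK (30 min and 6 h). In vehicle the highest fold within 1 kb of a start was found at TIRAP (5.08) and TICAM2 (5.07), followed by IRAK4 (4.42), TICAM1 (4.32), TLR4 (3.96), IRAK2 (3.86), TLR3 (3.72), MYD88 and IRAK1 (3.58 each). At MYD88 this value belongs to a region upstream that is nearer to ACAA1, and the region that covers the MYD88 start had a fold of 2.93. Without replicates, neighbours in this order cannot be told apart. The starts of TLR3, TLR4, MYD88, IRAK1 and IRAK4 thus carried the mark although no RELA or RELB region was listed near them. At TLR2 the nearest region in vehicle was 40498 bp away.

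The members had 53 H3K27ac regions in vehicle, 50 and 63 after TNFα (30 min and 6 h), and 50 and 55 after TWEAK, where the whole lists held 59894, 53895, 61194, 55821 and 58021. Of those at 30 min of TNFα, 6 overlapped no vehicle region (12.0%, against 18.5% of all regions of that list), and 7 vehicle regions were missing (13.2% against 27.8%). At 6 h of TNFα, 9 were not in vehicle (14.3% against 16.7%) and 3 were missing (5.66% against 15.6%). The TWEAK lists had 2 and 3 such regions at 30 min and 6 h (4% and 5.45% against 17.6% and 12.2%), and 4 and 3 vehicle regions were missing from them (7.55% and 5.66% against 24.6% and 20.2%).

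IRAK2 held 3 of the 6 regions that were not in vehicle at 30 min of TNFα and 5 of the 9 at 6 h, and 0 of 2 and 1 of 3 after TWEAK. IRAK2 also had the widest window. Of its own regions these were 3 of 14 at 30 min of TNFα (21.4%, against 18.5% of all regions) and 5 of 18 at 6 h (27.8% against 16.7%). After TWEAK they were 0 of 11 (against 17.6%) and 1 of 13 (7.69% against 12.2%). A pair of the IRAK2 regions that were not in vehicle lay 8 to 10 kb into the gene in both TNFα lists, with no RELA region within 500 bp. A further region appeared in both TNFα lists beside the RELA site at 34378 bp, from 34494 to 34962 bp at 30 min (fold 1.93) and from 34459 to 34932 bp at 6 h (fold 1.86). In vehicle and the TWEAK lists this site had an H3K27ac region on its upstream side alone. These folds are low, at the 2.60 and 2.90 percentile of their lists.

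**Figure D5:**
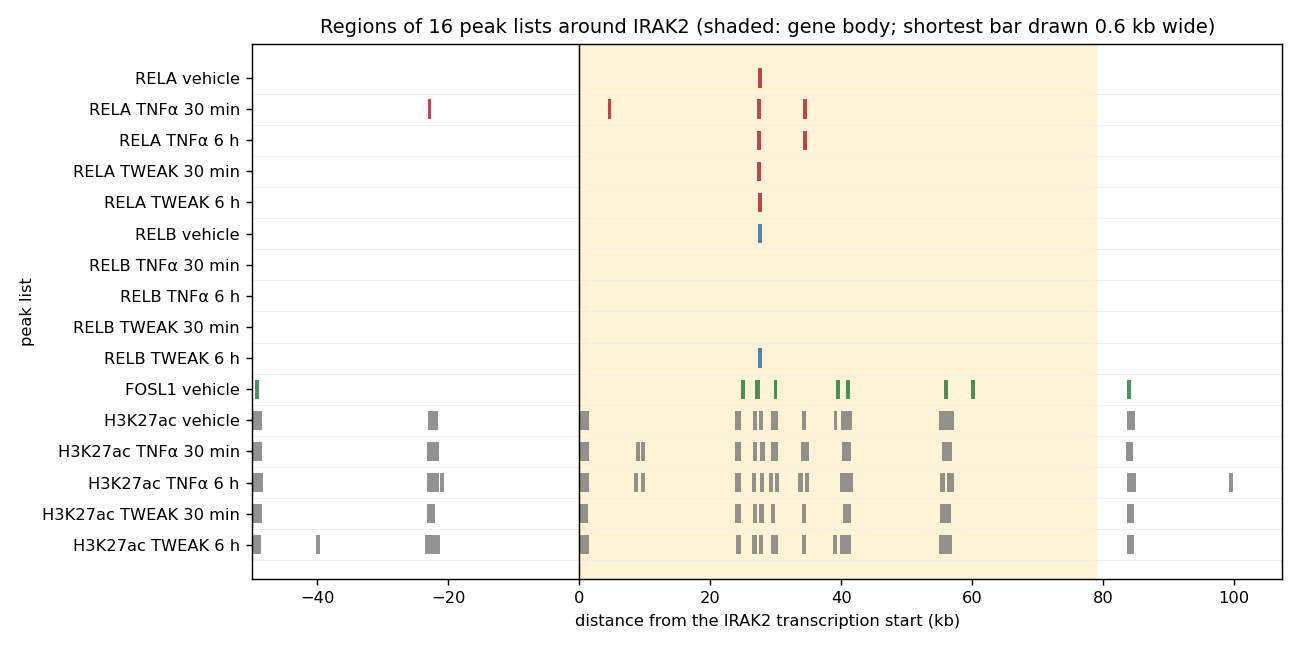
Regions of the 16 peak lists (rows) around IRAK2 by distance from its transcription start in kb, with the gene body shaded. RELA and RELB share the site 27379 bp into the gene, the RELA lists of TNFα add the site at 34378 bp, and H3K27ac regions 8 to 10 kb into the gene are in the 2 TNFα lists alone.

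The TIRAP site showed the same layout. An H3K27ac region was not in vehicle and lay 56346 to 56831 bp from the start at 30 min of TNFα (fold 2.85) and 56567 to 56818 bp at 6 h (fold 2.27), on the side of the RELA summit at 57072 bp that faces TIRAP, while the other side was marked in all 5 lists (fold 2.47 in vehicle, 3.20 and 3.04 after TNFα, 2.64 and 2.61 after TWEAK). The TIRAP and IRAK2 regions were picked out after their values were seen. Of all H3K27ac regions of 30 min of TNFα that were not in vehicle, 18.7% lay within 500 bp of a RELA region of that time, against 16.4% of all regions of the list, and at 6 h the shares were 10.6% and 8.46%. Whether RELA bears on the mark at these places was not tested.

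Of 38 other genes of the Toll-like and interleukin-1 receptor pathways, 19 had a RELA region at 30 min of TNFα (50.0%, against 48.1% of all genes), 13 at 6 h (34.2% against 26.8%) and 4 in vehicle (10.5% against 5.05%). After TWEAK it was 7 at 30 min (18.4% against 7.58%) and 4 at 6 h (10.5% against 5.11%). RELB was found at 11 of them at 6 h of TWEAK (28.9% against 13.6%) and at 2 in vehicle (5.26% against 3.06%). Neighbouring genes can be counted through the same region, so these are not counts of separate sites. The 11 include the neighbouring genes TLR1, TLR6 and TLR10, of which TLR1 and TLR10 share a RELB region. TLR6 had no RELB region within 10 kb of its gene body. It was counted through one farther off, which may be the same region. The genes named next had a region within 10 kb of the gene body, a narrower window than that of the counts. IKBKE, a kinase close to TBK1 that acts below TICAM1, had a RELA region 817 to 845 bp upstream of its start. It was in vehicle, both TNFα lists and at 30 min of TWEAK, with folds of 5.07, 15.5, 16.4 and 7.79. These stand at the 32.7, 96.2, 97.9 and 73.7 percentile. RELB was there at 6 h of TWEAK with 8.80, at the 80.4 percentile. TRAF3, an adaptor of the TICAM1 branch that also holds the noncanonical pathway in check, had RELA at its start in all 5 lists (fold 6.59 in vehicle, 10.7 and 14.2 after TNFα, 6.26 and 4.57 after TWEAK). It had RELB at 6 h of TNFα with a fold of 5.04 and at 6 h of TWEAK with 10.5.

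IRAK3, a kinase of the IRAK family that dampens the signal, had RELA at its start at 30 min of TNFα with a fold of 13.5 (93.6 percentile). Unlike at TICAM1, no other RELA or RELB list had a region within 1 kb of the IRAK3 start, and the RELB region of IRAK3 at 6 h of TWEAK (fold 6.64) lay 14829 bp into the gene. That RELB region stood at the 59.0 percentile. RELA was found at the same place in both TNFα lists (fold 4.62 at 30 min and 8.70 at 6 h, 21.3 and 81.4 percentile). RELA also lay 1732 and 1718 bp upstream of the start with folds of 10.1 and 9.79 (84.9 and 86.1 percentile). Among the Toll-like receptors of this list, RELB at 6 h of TWEAK lay 5474 bp upstream of TLR10 (fold 7.64, 71.3 percentile). This region also lies within 10 kb of TLR1. RELA at 30 min of TNFα lay 8345 bp from the TLR9 start, nearer to ALAS1 (fold 5.02, 31.2 percentile). Within 10 kb of the gene body, RELA at 30 min of TNFα was also found at RIPK1 (fold 17.8, 145 bp from a BPHL start), PELI3 (fold 16.8, at the DPP3 start), IRF3 (7.99), TAB2 (6.82), IL18RAP (6.14), IL18R1 and IL1RL1 (6.02, the same region), TAB1 (5.80), PIK3AP1 (4.59) and IL1RAP (4.54). Their percentiles ran from 98.1 at RIPK1 to 18.6 at IL1RAP, with TAB1 at 48.0 and PIK3AP1 at 19.5. Within the same 10 kb, SIGIRR had RELA at 6 h of TWEAK (4.77, 26.8 percentile, nearer to PKP3). At 6 h of TNFα, RELA was also found at RIPK1 (11.4), PELI3 (9.48) and TAB2 (5.79), at the 91.2, 84.8 and 52.1 percentile. At 30 min of TWEAK it was found at PELI3 (8.97) and RIPK1 (7.78), at the 82.2 and 73.5 percentile. RELB at 6 h of TWEAK was found at PELI3 (5.77), TAB2 (5.14) and IL1RAP (4.78), at the 41.5, 27.6 and 19.7 percentile. At PELI3 it overlapped the RELA region. At TAB2 it lay 14986 bp from the start, where RELA had folds of 6.09 and 4.99 at 30 min and 6 h of TNFα. The RELA folds given for TAB2 before belong to other regions. At IL1RAP, RELB lay 52533 bp from the start and RELA 19747 bp.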

How the data were processed

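Peak lists of ChIP-seq for RELA, RELB, FOSL1 and H3K27ac in L3.6pl cells were used, 1 for each of 16 groups of 3 replicates. Reads were aligned by the authors to hg38 using Bowtie2 (2.5.0, per the labels, which also name SAMtools 1.18 and deepTools 3.3.2) and called peaks against input with MACS2 (version not given in the sources used here) without a shifting model at a cutoff of 0.05, narrow for the 3 factors and broad for H3K27ac. The deposited fold enrichment is a ratio over input and the deposited −log10 q is its significance, averaged over a broad peak. The 16 columns of −log10 p and the scores were not used. Depth and replicate spread are unknown.

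Regions on chromosomes 1 to 22, X and Y were overlapped by 1 bp or more with own code (Python 3.11.15, numpy 2.4.6, pandas 2.3.3, pysam 0.24.0, figures with matplotlib 3.10.9), which was tested on simulated data. A percentile is the share of a list's regions with the same or a lower fold. H3K27ac was assigned within 500 bp of a site and starts within 1 kb. A region was called not in vehicle if it overlapped no vehicle region. The members and gene lists were chosen with earlier results of these data known. The genes named were the 10 members, pathway genes with a RELA or RELB region within 10 kb, and the 5 genes nearest to TICAM1 in percentile. The alternatives were a stricter q, a fold minimum, the strongest peaks, other flanks and start distances, a larger overlap, sites outside tandem repeats, and sites nearest to the member. Of the leukocyte markers, 1 is not reported here.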

Additional observations from a re-analysis of the deposited data

How the results depend on the processing

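Of 53 alternatives over 8 results, 46 stayed within 1.5 times the reported count and 7 did not. The 1 member with RELB in vehicle (IRAK2) fell to 0 with a q of at most 0.001, with a fold of at least 5 and with the 3000 strongest peaks of each list. With a fold of at least 5, members with RELA at 30 min of TNFα on FOSL1 went from 2 to 1 (the TICAM1 start drops out) and members with H3K27ac at a start in vehicle from 9 to 2 (TICAM2 and TIRAP). Members with a RELA region of 30 min of TNFα that was not in vehicle went from 4 to 2 with 10 kb on either side and with only sites whose nearest protein-coding start is the member's. The number of RELA and RELB lists with a region within 1 kb of the TICAM1 start was 6 under each of its alternatives, with 250 bp included.

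No paired analysis was possible because there is 1 list per group, so the replicate numbers in the labels carry no separate values. For the same reason no replicate was left out. The depth of the lists is unknown.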
